A study of Rattus norvegicus with 4 samples.

Results

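The genes described here are 9 that neurons switch on when they fire, chosen by name: Npas4, Ier2, Arc, Homer1, Nptx2, Inhba, Btg2, Gadd45b and Gadd45g. They were chosen with earlier results of these data known. On the arrays they are read by 13 of 41012 gene probes. Homer1 and Nptx2 had 2 probes each, Inhba had 3 and each of the other 6 genes had 1. All 13 were among the 36696 probes tested, the probes that the scanner software marked as well above background on 2 or more arrays. For 12 of them this held on all 4 arrays. The Npas4 probe reached 2 only through the shCM1 arrays.

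The series measured RNA in primary cortical neurons of Sprague Dawley rats, taken from both sexes at stage E18.5. At day 2 in vitro the cultures received a lentivirus with an shRNA against Cmtr1 (shCM1, 2 arrays) or with a control shRNA (shCTL, 2 arrays), and RNA was taken at day 7. CMTR1 is a cap methyltransferase, which modifies the ribose next to the mRNA cap. The arrays came from 2 independent experiments, and replicate 1 of both groups lay on slide 1 and replicate 2 of both on slide 2. The sources used here do not give the shRNA sequences. The only comparison is the shCM1 group against the shCTL group, so lower Cmtr1 and other effects of the shRNA cannot be told apart. Both groups carried virus, and no uninfected or stimulated culture was analysed here. The question asked of these genes was how their RNA differed in neurons with less Cmtr1.

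Synaptic activity raises calcium in a neuron, and calcium-dependent kinases then act on transcription factors such as CREB, SRF and MEF2, which sit at the promoters of activity-induced genes. Within minutes to hours the cell makes further transcription factors and a set of effectors that act at synapses, are secreted, or restrain growth and the cell cycle. NPAS4 is a transcription factor that in neurons responds to calcium entry with high selectivity. ARC drives removal of AMPA-type glutamate receptors from the synapse, HOMER1 links metabotropic glutamate receptors to the postsynaptic scaffold, and NPTX2 is a secreted pentraxin that clusters AMPA receptors. Inhba encodes the subunit of activin A, a secreted ligand of the TGF-beta family. BTG2 restrains proliferation and recruits the CCR4-NOT deadenylase, and the GADD45 proteins are small stress-induced proteins that bind cell-cycle regulators and activate a MAP kinase cascade.

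Each probe is a 60-base oligonucleotide printed on the array. The 9 probes given here are those of the genes whose difference passed a test and both probes of Homer1, which gave different values. They are given 5′ to 3′ as in the scanner files, in lower case throughout because no part is singled out.
Npas4 (chr1:207598909-207598968, minus strand): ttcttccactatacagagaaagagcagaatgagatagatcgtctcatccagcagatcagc
Arc (chr7:112772025-112772084, minus strand): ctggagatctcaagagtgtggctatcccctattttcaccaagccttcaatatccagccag
Homer1 p1 (no position in the files): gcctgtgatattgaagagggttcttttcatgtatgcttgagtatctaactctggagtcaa
Homer1 p2 (no position in the files): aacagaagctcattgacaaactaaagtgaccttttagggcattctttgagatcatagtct
Inhba p1 (chr17:57240473-57240532, minus strand): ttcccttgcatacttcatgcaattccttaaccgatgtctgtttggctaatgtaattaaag
Inhba p2 (chr17:57244604-57244663, minus strand): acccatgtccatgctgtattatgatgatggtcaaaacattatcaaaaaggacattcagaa
Inhba p3 (chr17:57240994-57241053, minus strand): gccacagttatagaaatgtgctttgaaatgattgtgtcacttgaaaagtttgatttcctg
Btg2 (chr13:47027022-47027081, minus strand): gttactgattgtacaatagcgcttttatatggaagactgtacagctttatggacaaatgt
Gadd45g (chr17:19231059-19231118, minus strand): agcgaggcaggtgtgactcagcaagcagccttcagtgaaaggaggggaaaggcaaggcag

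Positions are those of the rat build rn4 as the files give them, and an annotation of that build was not used, so exon or UTR is not stated. The Inhba probes share a target gene and are not replicates. Their starts span 4131 bases, with p1 and p3 only 521 bases apart. The Nptx2 probes start 942 bases apart on chromosome 12. The Homer1 probes are tied in the files to different transcript records. The Gadd45b probe is listed on only 28 bases of chromosome 7 although it is 60 bases long.

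A level is the log2 of a probe's signal over the 75th percentile signal of its array, and a difference is the shCM1 level less the shCTL level. The 75th percentile signal was 596.3 and 743.7 on the shCM1 arrays and 652 and 754.5 on the shCTL arrays. The share of probes well above background was 84% to 90.4% per array. Cmtr1 had levels of -3.46 and -3.53 on the shCM1 arrays and -1.43 and -1.86 on the shCTL arrays, which is 27.7% of control, and it fell in the slide-blocked fit (limma, adjusted p = 1.84e-06). The log2 difference was -1.85 by the 75th percentile and -1.22 with normexp. Normexp here adds an offset of 50 to every signal, which shrinks the log2 differences of dim probes. The depth read for the knockdown thus depends on the background correction and its offset. In limma without a block 0 of 36696 probes passed an adjusted p of 0.05, and 1111 (3.03%) had an unadjusted p under 0.05. With the slide as a block 1168 rose (3.18%) and 982 fell (2.68%). The blocked fit leaves 1 residual degree of freedom beside a prior of 14.66, so other probes of like brightness weigh most in its p, and with a prior that ignores intensity it called 0 probes (6286 at an unadjusted p under 0.05). For 1 probe, the smallest p that exact permutation of 2 arrays per group allows is 0.33 when slides are ignored. Swapping labels only within slides allows fewer arrangements, so the smallest p is then larger. The labels name independent experiments but not whether each slide holds 1 of them.

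Btg2, Gadd45g and Arc rose and Inhba fell in the slide-blocked fit. Npas4 passed it on the higher side as well, in a direction that the filter favoured, while Homer1, Nptx2, Gadd45b and Ier2 passed neither fit. Of the 13 probes 7 passed it, where 5.86% of all probes did. Of these 4 rose, where 3.18% of all probes did, and 3 fell, where 2.68% did, the 3 being the Inhba probes. Npas4 is among those that rose, and likewise in each count of higher probes or genes in this paragraph, although it entered the test through the shCM1 arrays. With only probes well above background on all 4 arrays tested, 6 of 12 passed, of which 3 rose. Counted by the brightest probe, 5 of 9 genes passed, against 6.08% of 30356 genes, with 4 that rose (3.32% of all) and 1 that fell (2.76% of all). Without the block all 13 probes had an adjusted p of 1, and 6 had an unadjusted p under 0.05. Both shCM1 arrays lay above both shCTL arrays for 5 probes, Npas4 included (21.7% of all probes do so) and below them for 3 (10.0%). The same 5 were higher within both slides (44.1% of all) and the same 3 lower within both (22.6%). Beside Npas4, whose shCTL signals were not well above background, only Btg2 was at least 1.5-fold higher within both slides (1.67% of all), and 0 of 13 were 1.5-fold lower in both (0.600%). The median difference was 0.09 over the 9 genes and 0.08 over all probes, and the genes went in both directions.

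**Figure D1:**
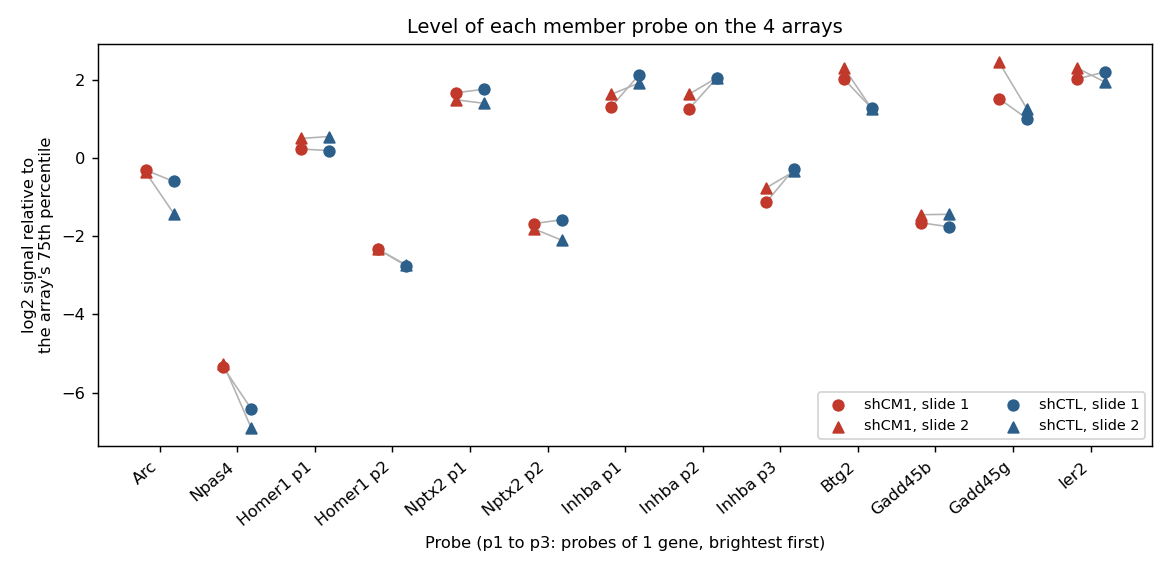
Level of each of the 13 probes on the 4 arrays, as log2 signal relative to the array's 75th percentile. Red stands for shCM1 and blue for shCTL, circles for slide 1 and triangles for slide 2, and a grey line joins the arrays of a slide. Btg2 and Gadd45g lie higher in shCM1 on both slides, all 3 Inhba probes lower, and Homer1 p1 differs by slide and not by group.

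**Figure D2:**
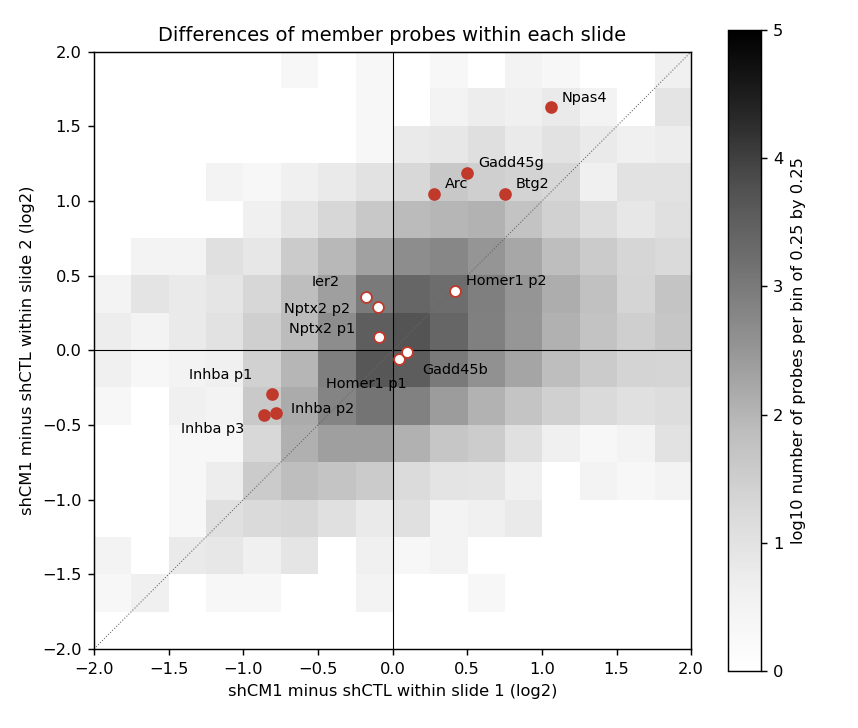
Differences (shCM1 minus shCTL, log2) within slide 1 on the horizontal axis and within slide 2 on the vertical axis, for the 13 probes as points over the density of all tested probes in grey. Filled points passed the slide-blocked limma fit, open points did not, and all-probe values beyond 2 are placed in the edge bins. Npas4, Arc, Gadd45g and Btg2 lie above the diagonal in the upper right, with larger differences on slide 2, and the Inhba probes lie at the lower left with larger ones on slide 1.

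Among the nuclear regulators, Npas4 was well above background in the shCM1 cultures only, and Ier2 in all 4. The Npas4 signal was 14.5 and 19.3 on the shCM1 arrays, well above background, and 7.6 and 6.29 on the shCTL arrays, not well above background. Its levels were -5.36 and -5.27 in shCM1 and -6.42 and -6.91 in shCTL. Both shCM1 arrays were the higher ones on either slide. The lowest signals well above background on the shCTL arrays were 9.19 and 6.68. With these in place of the shCTL signals of Npas4, its shCM1 mean was 2.25-fold higher. That value is no lower bound, because the difference depended on the scaling. The difference between measured means was 1.35, with 1.06 and 1.63 within slides 1 and 2 (limma with the slide block, adjusted p = 0.0379). Because the probe entered the test only through the shCM1 arrays, the filter favoured this direction, and its p is no independent support for it. It was 0.25 after normexp background correction, and Npas4 passed under 1 of 5 scalings (adjusted p from 0.0379 to 0.13).

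Ier2, an early-response gene whose protein is found in the nucleus, had levels of 2.02 and 2.31 in shCM1 and 2.20 and 1.95 in shCTL. The groups overlapped and the slides went opposite ways, at -0.18 and 0.36. The difference was 0.09 (95% interval of the blocked fit -0.15 to 0.33, adjusted p = 0.668). A change the size of that of Btg2 lies outside this interval.

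Among the synaptic effectors, Arc rose, the 2 Homer1 probes gave different values, and Nptx2 did not pass. Arc had levels of -0.31 and -0.37 in shCM1 and -0.60 and -1.42 in shCTL. Its shCM1 arrays were alike and both higher, and shCTL replicate 2 was the lowest by far. The difference was 0.67, or 1.59-fold (SE 0.30 without the block and 0.15 with it, n = 2 arrays per group), with 0.28 on slide 1 and 1.05 on slide 2 (1.22-fold and 2.07-fold). The adjusted limma p with the block was 0.0144. Without shCTL replicate 2 the difference was 0.25, and without shCTL replicate 1 it was 1.08. Arc lost its call after cyclic loess (adjusted p = 0.0771) and in the authors' table (0.0597), with differences of 0.57 to 0.67 over the 5 scalings.

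The Arc probe and Homer1 p1 are each printed 10 times on every array, which shows the spread between spots of an array. The Arc spots read 453 to 494 and 543 to 613 on the shCM1 arrays, and 411 to 444 and 270 to 301 on the shCTL arrays. Spots of 1 array had an SD of 0.033 to 0.052 in log2. Relative to the array's 75th percentile the spots of the shCM1 arrays overlapped, and all spots of shCTL replicate 2 lay below those of the other arrays. Spots of 1 array share their RNA sample and its hybridization. They are no replicates of a culture and say nothing of the spread between arrays or cultures.

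**Figure D3:**
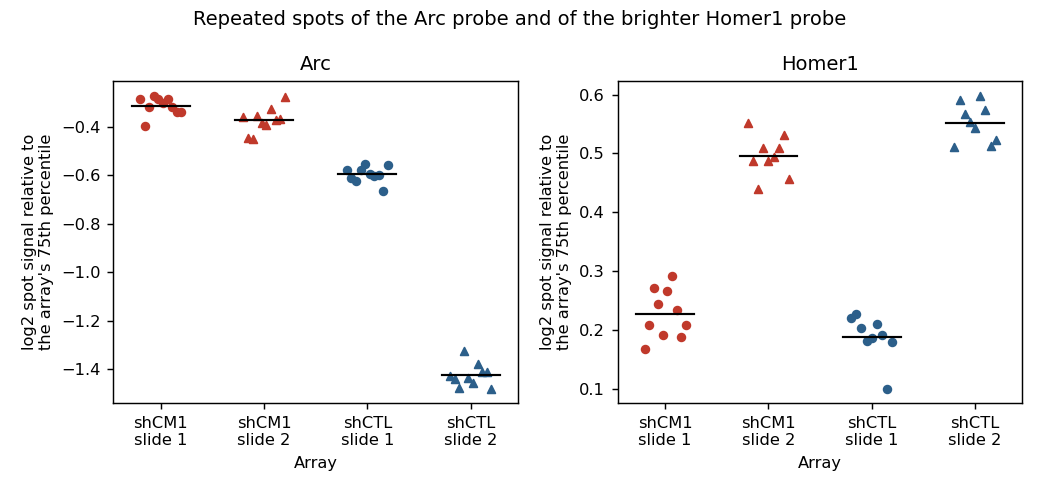
Repeated spots of the Arc probe on the left and of Homer1 p1 on the right, as log2 spot signal relative to the array's 75th percentile, with a point per spot and a bar at the mean. Columns are the shCM1 arrays and then the shCTL arrays, and the left and right axes differ. For Arc, shCTL on slide 2 lies far below the other arrays, and for Homer1 p1 the arrays separate by slide.

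Homer1 p1 had levels of 0.23 and 0.50 in shCM1 and 0.19 and 0.55 in shCTL. The groups overlapped, and the arrays of slide 2 were higher in both. Its spots read 670 to 730 and 1008 to 1091 in shCM1 and 699 to 763 and 1075 to 1142 in shCTL, after 1 outlier spot was left out on each of 3 arrays. The difference was -0.01, with a 95% interval of -0.22 to 0.21 in the blocked fit. Homer1 p2 had levels of -2.34 and -2.34 in shCM1 and -2.76 and -2.74 in shCTL. Here the groups did not overlap and the slides matched, at 0.42 and 0.40. The difference was 0.41, or 1.33-fold, with an interval of 0.12 to 0.69, and it did not pass over all probes (limma with the block, adjusted p = 0.0838) or under any of the 5 scalings (0.28 to 0.41). Homer1 is known to give a short, activity-induced form and long forms. Which form either probe reads was not determined here, and the difference between the probes was not tested.

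Nptx2 p1 had levels of 1.67 and 1.49 in shCM1 and 1.76 and 1.40 in shCTL, a difference of 0.00 with a 95% interval of -0.20 to 0.20. Nptx2 p2 had -1.68 and -1.81 in shCM1 and -1.58 and -2.10 in shCTL, a difference of 0.09 with an interval of -0.18 to 0.37. Both probes overlapped between groups and were lower within slide 1 (-0.09 and -0.10) and higher within slide 2 (0.09 and 0.29). Their adjusted p in the blocked fit was 0.994 and 0.708.

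Inhba, which encodes a secreted ligand, fell by all 3 probes in the blocked fit. Inhba p1 had levels of 1.31 and 1.63 in shCM1 and 2.13 and 1.92 in shCTL. Inhba p2 had 1.25 and 1.63 in shCM1 and 2.04 and 2.05 in shCTL, and p3 had -1.13 and -0.76 in shCM1 and -0.27 and -0.34 in shCTL. For every probe both shCM1 arrays were below both shCTL arrays, and shCM1 replicate 1 was the lowest. The differences were -0.55, -0.60 and -0.64 for p1, p2 and p3 (SE 0.11, 0.10 and 0.12 with the block, 0.18 to 0.19 without), or 68.3%, 65.8% and 64.0% of control. The 95% intervals of the blocked fit ran from -0.90 to -0.31 over the 3 probes. Slide 1 gave -0.81, -0.78 and -0.86, and slide 2 gave -0.29, -0.42 and -0.43. Probes 4131 bases apart thus gave nearly the same ratio. The adjusted limma p with the block was 0.00942, 0.00254 and 0.00568. Inhba p2 and p3 passed under all 5 scalings, and p1 missed after cyclic loess (adjusted p = 0.0649) and in the authors' table (0.0531).

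Of the growth-arrest genes Btg2 and Gadd45g rose and Gadd45b did not pass. Btg2 had levels of 2.02 and 2.31 in shCM1 and 1.27 and 1.26 in shCTL. The shCTL arrays were nearly equal and both shCM1 arrays stood above them. The signal was 2425 and 3686 in shCM1 and 1576 and 1812 in shCTL. The difference was 0.90, or 1.86-fold (SE 0.17 without the block and 0.10 with it, n = 2 arrays per group, 95% interval of the blocked fit 0.69 to 1.11). Within slides 1 and 2 it was 1.68-fold and 2.06-fold. The adjusted limma p with the block was 6.55e-05, the lowest of the 13 probes. It passed under all 5 scalings (0.85 to 0.95), and it alone of the 13 also passed when every probe was tested with no filter on dim ones (adjusted p = 0.015).

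Gadd45g, which in the GADD45 family is the member first described as cytokine-responsive, had levels of 1.52 and 2.45 in shCM1 and 1.01 and 1.26 in shCTL. Both shCM1 arrays were higher, and shCM1 replicate 2 stood well above replicate 1. The difference was 0.85, or 1.80-fold (SE 0.33 without the block and 0.13 with it, adjusted limma p with the block = 0.00093), with 1.42-fold on slide 1 and 2.28-fold on slide 2. Without shCM1 replicate 2 the difference was 0.38, and without shCM1 replicate 1 it was 1.31. It passed under all 5 scalings, with 0.77 to 0.90. Gadd45b, its close relative, had -1.66 and -1.45 in shCM1 and -1.76 and -1.44 in shCTL. These groups overlapped, and the difference was 0.04 (95% interval -0.21 to 0.30, adjusted p = 0.869), with 0.10 and -0.01 within the slides. The difference between the GADD45 genes was not tested.

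**Figure D4:**
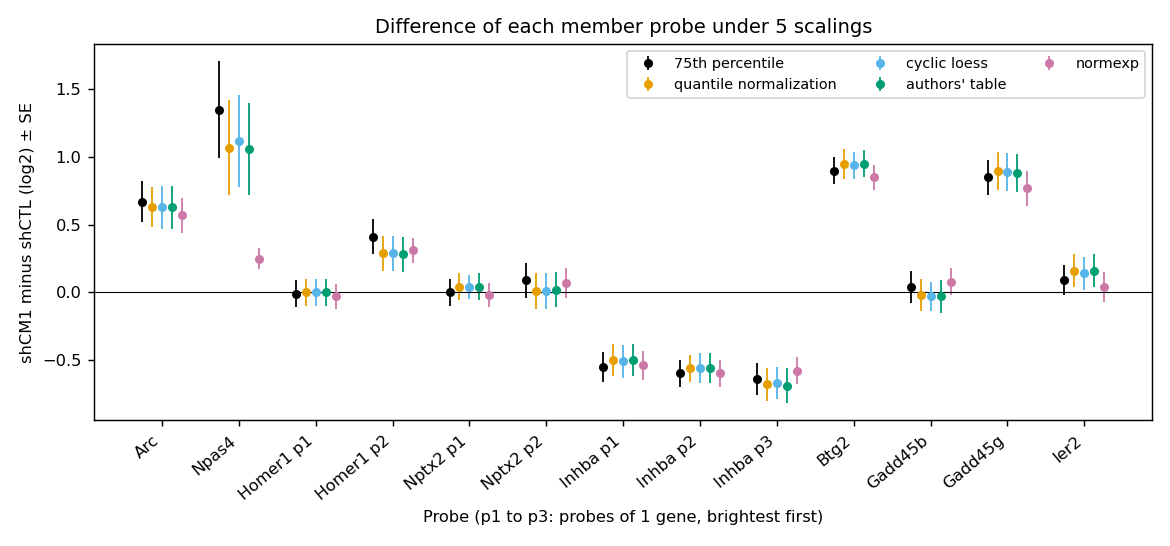
Difference (shCM1 minus shCTL, log2) of each of the 13 probes under 5 scalings, with the standard error of the slide-blocked limma fit as bars. Btg2, Gadd45g, Arc and the 3 Inhba probes keep their side of 0 with little movement. Npas4 is 1.35 by the 75th percentile, 1.07 by quantile normalization, 1.12 by cyclic loess and 1.06 in the authors' table. By normexp it is 0.25, where the offset of 50 shrinks differences of dim probes.

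The promoters of 8 of the 9 genes were in a RefSeq table of build GRCr8 that gives 250 bases before and 50 after each gene's start. On either strand the full cAMP response element, TGACGTCA, was found in 2 of the 8, Btg2 and Ier2, and in 1.83% of 33469 promoters. It is the sequence CREB binds. The bases before the start are shown for these 2 because they share the element in capitals while Btg2 rose and Ier2 did not pass.
Btg2 promoter (chr13:48087691-48087940, minus strand): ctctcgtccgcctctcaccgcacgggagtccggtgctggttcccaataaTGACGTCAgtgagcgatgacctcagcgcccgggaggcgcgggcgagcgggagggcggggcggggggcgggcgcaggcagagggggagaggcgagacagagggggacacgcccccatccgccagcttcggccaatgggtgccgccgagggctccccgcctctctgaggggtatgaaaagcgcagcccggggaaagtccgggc
Ier2 promoter (chr19:40399123-40399372, plus strand): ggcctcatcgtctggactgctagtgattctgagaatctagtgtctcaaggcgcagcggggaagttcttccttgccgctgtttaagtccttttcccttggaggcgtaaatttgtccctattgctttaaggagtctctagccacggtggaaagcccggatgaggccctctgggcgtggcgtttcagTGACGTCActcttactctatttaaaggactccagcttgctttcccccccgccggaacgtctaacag

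In Btg2 the element begins 201 bases before the start, and in Ier2 66 bases before it. The CCAAT box (CCAAT) was in 5 of the 8 promoters (37.5% of all), TATAAA in Gadd45g, Homer1 and Inhba (14.2% of all), and the E box CACGTG in Gadd45b and Gadd45g (6.42% of all). The AP-1 site TGANTCA (7.33% of all) and the CArG box (1.64% of all) were in none of the 8. A match describes these letters and is neither a site in use nor a cause.

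Other activity-induced genes were mostly on the higher side in shCM1. Their list was chosen with earlier results of these data known, so its counts are a description only. Of 34 tested, 7 rose and 0 fell in the blocked fit, where 3.32% of all genes rose and 2.76% fell. Their median difference was 0.27 against 0.08 for all probes. Within both slides 23 were higher and 2 lower (44.1% and 22.6% of all probes). Fos, a subunit of the AP-1 transcription factor, had levels of 0.31 and 0.39 in shCM1 and -0.25 and -0.89 in shCTL, a difference of 0.92 (SE 0.14 with the block, limma adjusted p = 0.00095). Junb, its dimer partner, had 0.75 (adjusted p = 0.00934), the zinc finger factor Egr3 0.67 (0.0115) and the neurotrophin Bdnf 0.59 (0.0269). Scg2, Egr4 and Vgf, named after their values were seen as the other 3 that rose, had 0.46, 0.45 and 0.40 (limma adjusted p = 0.00915, 0.0497 and 0.0407). With single arrays left out these ran from -0.03 to 0.94 for Scg2, 0.04 to 0.86 for Egr4 and -0.22 to 1.02 for Vgf. As with Arc, the log2 differences of Fos and Junb were larger on slide 2 (1.28 and 1.06) than on slide 1 (0.56 and 0.44). Without shCTL replicate 2 Fos had 0.60 and Junb 0.41. Bdnf had 0.21 without shCM1 replicate 1 and 0.97 without shCM1 replicate 2, and its other probe had 0.50 (adjusted p = 0.177). Fos and Scg2 passed under all 5 scalings, while Junb, Egr3, Bdnf, Egr4 and Vgf each missed under at least 1 (highest adjusted p 0.0783, 0.0727, 0.129, 0.163 and 0.0896). Among 18 transcription regulators that respond to calcium or growth factors, such as the CREB, CRTC and SRF families, 0 rose and Mef2c fell (-0.44, adjusted p = 0.00538), with a median of 0.04.

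Most genes that work with the members did not pass the blocked fit, though every list below had a gene that did. Over all genes 6.08% passed it, with 3.32% that rose and 2.76% that fell, the shares to set beside each list below. Of 9 endocytosis partners of ARC, 0 rose and the adaptor subunit Ap2a2 fell by 1 probe (-0.31, adjusted limma p with the block = 0.0308), while its other probes had -0.07 each and the list's median was -0.10. Leaving out single arrays gave Ap2a2 -0.64 without shCM1 replicate 1, 0.01 without shCM1 replicate 2, -0.03 without shCTL replicate 1 and -0.60 without shCTL replicate 2. Of 9 HOMER partners 0 rose and the IP3 receptor Itpr1 fell (-0.31, adjusted p = 0.0463, other probe -0.18), with a median of -0.11. Ap2a2 and Itpr1 missed under at least 1 other scaling (highest adjusted p 0.132 and 0.155). In the pentraxin and AMPA receptor list of 6 genes, the pentraxin Nptx1 rose and the pentraxin receptor Nptxr fell, beside an Nptx2 that did not pass, and the 4 AMPA receptor genes passed in neither direction. Nptx1 had 0.48 (adjusted p = 0.0149), with 0.22 without shCTL replicate 2, 0.29 without shCM1 replicate 1, 0.67 without shCM1 replicate 2 and 0.74 without shCTL replicate 1. Nptxr had levels of 3.85 and 3.51 in shCM1 and 4.51 and 4.25 in shCTL, a difference of -0.70 (SE 0.08 with the block, adjusted p = 9.77e-05).

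In the activin pathway, Fst fell along with Inhba. Follistatin, the product of Fst, binds activin and blocks it. Fst had levels of 1.58 and 2.12 in shCM1 and 2.48 and 2.53 in shCTL, a difference of -0.65 (adjusted limma p with the block = 0.00225), and -0.68 by its other probe (0.00104). Without shCM1 replicate 1 it had -0.38. The decoy receptor Bambi rose (0.38, adjusted p = 0.0481), with 0.07 without shCM1 replicate 1, 0.68 without shCM1 replicate 2, 0.72 without shCTL replicate 1 and 0.03 without shCTL replicate 2, and it missed under at least 1 other scaling (0.108). The remaining 12 of 14 tested genes, which include the activin receptors and SMAD proteins, did not pass, and the list's median was 0.07.

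Among 12 genes of the BTG/TOB family and the CCR4-NOT deadenylase, Btg1, the close relative of Btg2, rose and 0 fell. It had levels of 4.56 and 4.35 in shCM1 and 3.96 and 3.88 in shCTL, a difference of 0.54 (SE 0.08 with the block, limma adjusted p = 0.000991). The list's median was 0.20, with 9 of 12 higher within both slides (44.1% of all probes). Among 8 partners of GADD45 and growth-arrest genes, the cyclin-dependent kinase inhibitor Cdkn1a rose, and Cdk1 and Ccnb1, the kinase and cyclin of mitosis entry that GADD45 proteins bind, fell. Cdkn1a had 2.62 and 3.02 in shCM1 and 2.13 and 2.35 in shCTL, a difference of 0.58 (adjusted p = 0.00119), with 0.85 by its other probe (0.00437) and 0.38 without shCM1 replicate 2. Cdk1 had -0.51 (adjusted p = 0.00739), with -0.19 without shCM1 replicate 1 and -0.83 without shCM1 replicate 2. Ccnb1 had -0.45 (adjusted p = 0.0343) and -0.19 by its other probe, and both Cdk1 and Ccnb1 missed under at least 1 other scaling (highest adjusted p 0.0595 and 0.068). The median of these 8 was -0.05.

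Markers of several cell types moved with the groups in which the members differed, and their part in the results above was not tested. Over all genes 3.32% rose and 2.76% fell in the blocked fit. In bulk RNA fewer cells of a type and less RNA per cell cannot be told apart. All 12 neuron markers were well above background on every array, led by Stmn2 and Dcx, and 1 fell (Tubb3, -0.37) and 0 rose. Their summed level, in multiples of the 75th percentile signal, was 436 in shCM1 and 449 in shCTL on slide 1. On slide 2 it was 343 and 362. Of 17 microglia markers 8 rose and 0 fell (median 0.67), with summed levels of 15.5 to 16.8 in shCM1 and 13.2 to 13.4 in shCTL. Laptm5 was among the brightest of these, Itgam was above background on no array, and Cx3cr1 on 3. Of 11 inhibitory neuron markers 6 rose and 0 fell (median 0.41, led by Sst and Npy). Their sums were 328 in shCM1 and 282 in shCTL on slide 1, and 189 and 181 on slide 2. Not all 6 passed under every scaling, and some shrank towards 0 when single arrays were left out. Of 7 excitatory neuron markers 3 fell, among them Camk2a (-0.98, and -0.26 by its other probe, adjusted p = 0.234) and Neurod6 (-0.62), and 0 rose (median -0.22, sums of 24.1 to 25.1 in shCM1 and 28.3 to 30.4 in shCTL, led by Neurod2 and Neurod6).

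Of 9 astrocyte markers 0 passed in either direction (median -0.04, led by Slc1a3 and Aqp4). Their sums were 133 in shCM1 and 123 in shCTL on slide 1, and 136 and 137 on slide 2. Of 10 oligodendrocyte markers 2 rose, among them Mbp (0.52), and 1 fell (Cspg4, -0.35). The list's median was 0.09, and Olig1 and Pdgfra were the brightest. The sums were 45.6 in shCM1 and 50.8 in shCTL on slide 1, and 57.9 and 59.2 on slide 2. Of 8 endothelial and mural markers 1 rose (Pdgfrb, 0.62), with Pecam1 above background on 2 arrays. The list's median was 0.19, and Kdr and Pdgfrb were the brightest. The sums were 1.10 in shCM1 and 0.768 in shCTL on slide 1, and 1.23 and 1.14 on slide 2. Of 5 fibroblast markers 2 rose (Dcn 0.86, Col1a2 0.54; list median 0.54, sums of 1.68 to 2.01 in shCM1 and 1.49 to 1.5 in shCTL, led by Col1a1 and Col1a2), while another probe of Col1a1 fell (-0.65, adjusted p = 0.0129) and another of Col1a2 did not pass (0.44, 0.0843), with Lum above background on 2 arrays. With single arrays left out Tubb3 ran from -0.62 to -0.11, Cspg4 from -0.50 to -0.20, Pdgfrb from -0.10 to 1.34 and Dcn from 0.31 to 1.41.

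For each member that passed, the other genes with the most similar pattern were sought among 15083 genes, by the Euclidean distance between mean-centred log2 levels over the 4 arrays. Arc lay nearest to Junb (distance 0.13) and Vdr (0.14), and Btg2 to Dkk3 (0.10) and Gpr171 (0.11). Inhba lay nearest to Ccnb1 and Sla (0.13 each), Gadd45g to Or5w13 (0.19) and Scml4 (0.21), and Npas4 to Serpina16 (0.20) and Prf1 (0.28). These distances rest on 4 arrays and are a description only.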

How the data were processed

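Per the labels' protocols, amplified RNA carried the dye Cy3. Each deposited scanner file gives a linear intensity per spot. Per the file headers, it is the output of Agilent Feature Extraction 10.7.3.1, which subtracts the background within an array and does not normalize between arrays. Control spots and outlier spots (86 to 98 per array) were left out, 0 gene spots were saturated, and the 43379 gene spots were averaged to 41012 probes. The log2 of the deposited processed signal minus each array's 75th percentile was used. Probes well above background on at least 2 arrays entered (36696), and 6 probes lacking a value on an array did not. For arrays, their number limits the precision.

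The test was limma 3.58.1 (R 4.3.3), two-sided, using lmFit and eBayes with a trend on intensity. P-values were adjusted by Benjamini-Hochberg over all probes, at a threshold of 0.05. It was fitted with no block, and again with the slide as a fixed term, and "rose" and "fell" refer to this blocked fit. Slides are read from the file headers, and deviations of same-numbered arrays correlated at 0.713 across probes. The blocked fit was also run on simulated data. These had normal noise with the spread that the fit itself had estimated, so they could not check that estimate. Alternatives were quantile normalization, cyclic loess, normexp with an offset of 50, the authors' deposited table of intensity values (how it was normalized: not given in the sources used here), other filters, no trend, and each array left out.

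The members and the gene lists were chosen with earlier results of these data known. A gene was represented by its brightest probe. Named were every member probe, Cmtr1, per list up to 4 genes that passed by size or otherwise the lowest p, per cell type the 2 brightest and those near background, and per member that passed the 2 nearest patterns. Of the probes, 18969 were named through RefSeq (GRCr8) by accession, 2994 by symbol and 203 by older symbol, and 18840 kept the file's name. Single values of a few marker genes are not reported here.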

Additional observations from a re-analysis of the deposited data

How the results depend on the processing

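Without a block limma called 0 of 36696 probes under each scaling, filter and left-out array tried, with 695 to 1460 at an unadjusted p under 0.05. With the slide, which is the replicate number, as a replicate block it called 2150 probes, and the members' calls exist only in this paired fit. The blocked count was 1350 after quantile normalization, 971 after cyclic loess, 1113 in the authors' table, 1401 with normexp, 353 with no filter on dim probes and 0 with no intensity trend (6286 at an unadjusted p under 0.05). The share of higher calls was 54.3% by the 75th percentile, 40.2% after quantile normalization, 38.0% after cyclic loess, 38.7% in the authors' table, 44.5% with normexp and 30.0% with no filter. Of the 13 member probes 7 were called; this became 4 after cyclic loess, 4 in the authors' table, 1 with no filter, 0 with no intensity trend and 0 with no replicate block. The cause of these losses was not tested. Of the members that passed no fit, Nptx2 and Gadd45b changed sign between scalings. With quantile normalization, cyclic loess or the authors' values Nptx2 had 0.04 and Gadd45b -0.02, -0.03 and -0.03. Over the 5 scalings Homer1 p1 had -0.03 to 0.00 and Ier2 0.04 to 0.16. By their other probes Nptx2 had 0.09 and Homer1 0.41. Leaving out single arrays gave Homer1 -0.19 to 0.17, Nptx2 -0.18 to 0.18, Gadd45b -0.12 to 0.20 and Ier2 -0.05 to 0.23, and it kept the sign of the 5 member genes that passed. Such fits compare unequal slides. Signal over background limits Npas4, the single member near it.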
